A study of Mus musculus with 9 samples.

Results

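Desmosomes are the junctions that fasten keratinocytes to each other and anchor their keratin filaments. Their genes were followed here in whole skin of mice from 3 transgenic lines and of controls. The 9 genes listed were the desmogleins Dsg2 and Dsg3, the desmocollins Dsc1, Dsc2 and Dsc3, the plakin Dsp, the plakophilins Pkp1 and Pkp3, and Jup, which encodes plakoglobin. A gene was taken in through every probe set annotated to it alone. This gave 8 genes with 17 probe sets, of 12393 genes measured in all. No probe set was annotated to Dsg3 in the platform table used, so Dsg3 was not analysed here.

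The series title concerns constitutively active Akt, a kinase that carries growth factor signals, together with ectodermal defects and impaired bone morphogenetic protein signalling. Whole skin was collected 30 days after birth from the transgenic lines L60, L84 and LA (2 arrays each) and from control mice LC (3 arrays), each array with RNA pooled from mice of 1 genotype. All groups shared a mixed C57BL/DBA/FVB background. The labels name neither the promoter of the transgene nor the difference between the lines, nor the number of mice in a pool. The p-values set each difference against the spread between pools of the same group, taken as common to all groups.

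In a desmosome, the extracellular parts of desmogleins and desmocollins bind those of the neighbouring cell. Their cytoplasmic tails hold plakoglobin and the plakophilins, which are armadillo-repeat proteins, and these bind desmoplakin, which takes hold of keratin filaments. In mouse epidermis the cadherins are layered: Dsg3 and Dsc3 belong to the lower layers and Dsc1 to the upper layers, while Dsg2 and Dsc2 are also found in simple epithelia and heart.

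The deposited values are scores. Every probe set was standardised over the 9 arrays to mean 0 and SD 1, so a score says how far an array lies from that probe set's own average and carries neither a level nor a fold. Differences are in these SDs, and the level of one gene cannot be set against that of another. For the same reason, whether skin markers are present or absent cannot be read. The 3 probe sets for 18S ribosomal RNA averaged 0.339 to 2.09 on L60 1, L84 1 and LC 1, against -0.642 to -0.528 on the other 6 arrays. Scores were spread most widely on L84 1 and LA 2 (SD 1.2 and 1.31, against 0.764 to 0.907 on the other arrays). Over all genes, the arrays of a group correlated at -0.0228 in L60, -0.296 in L84 and 0.229 in LA, while in LC they correlated at 0.604 for LC 2 with LC 3 and at 0.153 and 0.103 for LC 1 with each of these.

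No desmosome gene passed the test in any comparison, and 1 stood apart from the rest. Dsc2 scored lower than in every control array on all 6 arrays of the transgenic lines, with a difference of -1.75 ± 0.243 SDs (SE) between the mean of the lines and LC. The other 7 genes had at least 1 transgenic array inside or above the control range. Most group means of the desmosome genes, Dsc2 included, were below the control mean: 8 of 8 genes were below LC in L60 (45.2% of all genes), 7 of 8 in L84 (49.9%), 6 of 8 in LA (43.9%) and 7 of 8 in the mean of the lines (43.9%). In whole skin, fewer cells of a type and less RNA per cell cannot be told apart.

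These counts were read against all genes. The test was a linear model of the group means over all 9 arrays (limma, unmoderated), and genes with an adjusted p (Benjamini-Hochberg, over all genes) under 0.05 are referred to as called. Against LC, 0 of 8 desmosome genes were called in L60, where 0% of all genes were, 0 in L84, where 0.565% were, 0 in LA, where 1.8% were, and 0 in the mean of the 3 lines, where 0.637% were. The test over the 4 genotypes at once also called 0, against 0.734% of all genes, and gave an unadjusted p under 0.05 for 1, Dsc2 (limma, unadjusted p = 0.00435, adjusted p = 0.154), against 14.8%. At an unadjusted p under 0.05 limma gave 1, 1, 1 and 2 of the 8 genes in L60, L84, LA and the mean of the lines, against 4.72%, 12.2%, 20.8% and 13.3% of all genes. With limma's moderated variance 0 were called in each of these comparisons as well. Genes with all arrays of a line below all LC arrays numbered 2 of 8 in L60 (Dsc2 and Pkp3, 10.8% of all genes), 2 in L84 (Dsg2 and Dsc2, 14.7%) and 2 in LA (Dsc2 and Pkp3, 21%). For Pkp3 in L60 this was a near tie, with L60 2 and LC 1 both at -0.2 as rounded. No desmosome gene had all arrays of a line above those of LC, against 14.4%, 13.8% and 27.8% of all genes, and none had all 6 transgenic arrays above them, against 3.7%.

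The median difference from LC over the 8 genes was -0.76 in L60, -1.15 in L84 and -0.77 in LA, against 0.078, 0.0031 and 0.25 over all genes. These comparisons share the control arrays. With the median of every array set to 0, the medians of the 8 genes were -0.84, -1.13 and -0.9, and Pkp1 in LA turned to -0.043. The medians moved with single control arrays. Without LC 1 they were -1.32, -1.76 and -1.56, and without LC 2 they were -0.29, -0.8 and -0.21. The count in L60 rested on small differences, since without L60 2 those of Dsg2, Dsc1 and Pkp1 turned to 0.44, 0.44 and 0.53, and that of Dsc1 was also 0.12 without LC 2 and 0.32 without LC 3.

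**Figure D1:**
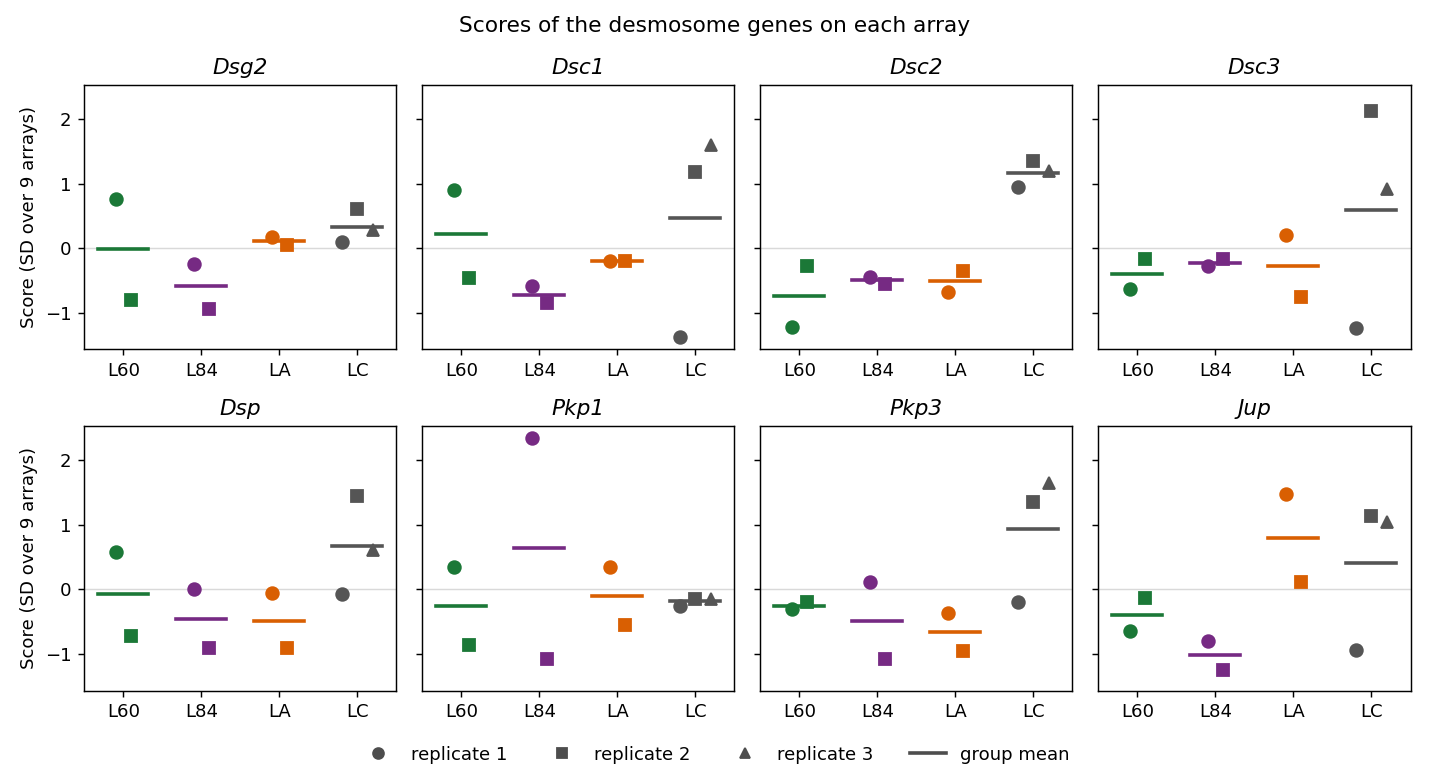
Score of each desmosome gene (mean of its probe sets, in SDs over the 9 arrays) on every array of L60, L84, LA and LC. Points are arrays, their shape gives the replicate number, and bars are group means. Dsc2 separates all 6 transgenic arrays from the 3 control arrays, and LC 1 lies below LC 2 and LC 3 for all 8 genes.

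Dsc2, a desmocollin found in desmosomes of many epithelia, scored -1.22 and -0.27 in L60, -0.444 and -0.547 in L84 and -0.68 and -0.349 in LA, against 0.953, 1.35 and 1.2 in LC. The 6 transgenic arrays did not overlap with the controls, and the lowest of all 9 was L60 1. Such a gap, with all 6 transgenic arrays below all 3 control arrays, was seen for 2.98% of all genes. Dsc2 differed from LC by -1.91 ± 0.313 in L60 (limma, adjusted p = 0.531), by -1.66 ± 0.313 in L84 (adjusted p = 0.162) and by -1.68 ± 0.313 in LA (adjusted p = 0.0768). None of these was called. Among 12393 genes its unadjusted p ranked 40 in L60, 241 in L84 and 487 in LA.

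For the mean of the 3 lines the adjusted p of Dsc2 was 0.0709, with an unadjusted p of 0.000795. It was called under 1 of 16 alternatives, limma's array weights (a difference of -1.84, adjusted p = 0.0382), and the adjusted p over these alternatives ran from 0.0382 to 0.412. The difference itself kept its sign in all of them, between -1.91 and -1.6. Since the arrays did not overlap, leaving out or reweighting arrays could not turn that sign, so it adds no separate support. The lines could not be ordered by Dsc2: the difference was 0.25 for L84 minus L60 (95% interval -0.63 to 1.13), 0.23 for LA minus L60 (-0.65 to 1.11) and -0.019 for LA minus L84 (-0.9 to 0.86).

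Dsc2 was read by 2 probe sets. Probe set 1426911_at scored -0.995 and -0.305 in L60, -0.132 and -0.858 in L84 and -0.703 and -0.758 in LA, against 1.74, 1.16 and 0.853 in LC. Probe set 1421156_a_at scored -1.44 and -0.236 in L60, -0.755 and -0.236 in L84 and -0.656 and 0.0606 in LA, against 0.167, 1.55 and 1.54 in LC. Both put all transgenic arrays below all controls, the first with a wide gap and the second with LA 2 close to LC 1. Fitted on their own, they differed from LC in the mean of the lines by -1.88 ± 0.301 and -1.63 ± 0.488, with adjusted p = 0.128 and 0.329 over all probe sets (limma).

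The other desmocollins had the same sign without that separation. Dsc1, the desmocollin of the upper epidermis, scored 0.905 and -0.454 in L60, -0.586 and -0.849 in L84 and -0.205 and -0.202 in LA, against -1.38, 1.18 and 1.59 in LC. The control arrays spanned both the lowest and the highest score of the gene, so that every transgenic array lay between them. Dsc3, the desmocollin of the lower epidermis, scored -0.634 and -0.163 in L60, -0.281 and -0.163 in L84 and 0.199 and -0.755 in LA, against -1.24, 2.12 and 0.914 in LC. Here too LC 1 was the lowest and LC 2 the highest of all arrays.

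The difference of Dsc1 from LC was -0.24 in L60, -1.18 in L84 and -0.67 in LA (SE 1.01), and that of Dsc3 was -1, -0.82 and -0.88 (SE 1.03), with limma adjusted p between 0.634 and 1. Their intervals are wide, from -3.78 to 1.42 for Dsc1 in L84, so differences as large as that of Dsc2 lie inside them. Along the genome these genes are neighbours. In the GRCm38.p6 gene table Dsc3, Dsc2 and Dsc1 follow each other with no other protein-coding gene between them, and 5 further desmoglein genes (Dsg1c, Dsg1a, Dsg1b, Dsg4 and Dsg3), none of them measured here, separate Dsc1 from Dsg2.

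**Figure D2:**
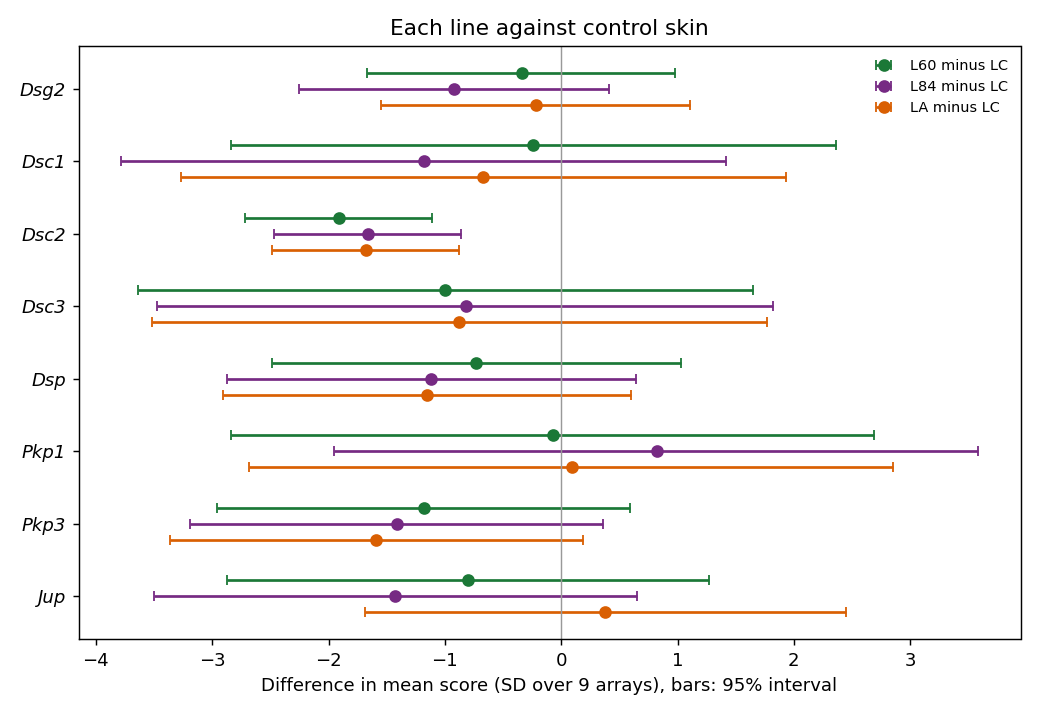
Difference in mean score of each line minus LC for the 8 desmosome genes, in SDs over the 9 arrays. Points are differences from the linear model over all arrays and bars are 95% intervals, not adjusted for the number of genes. The intervals of Dsc2 lie below 0 in all 3 lines, and those of the other 7 genes reach across 0.

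Dsg2, a desmoglein that accompanies Dsc2 in many epithelia, had 6 probe sets whose mean scored 0.768 and -0.794 in L60, -0.245 and -0.938 in L84 and 0.166 and 0.0531 in LA, against 0.0993, 0.609 and 0.282 in LC. L60 held the highest score of all and the second lowest, and only L84 lay wholly below LC. Its difference from LC was -0.34 in L60, -0.92 in L84 and -0.22 in LA (SE 0.516, limma adjusted p = 1, 0.569 and 0.822).

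The probe sets of Dsg2 did not follow a common pattern. Probe set 1449741_at scored 1.9 and 0.803 in L60, -0.551 and -0.904 in L84 and 0.772 and 0.32 in LA, against -0.816, -0.982 and -0.542 in LC. It put L60 and LA above all controls, with differences of 2.13 ± 0.38 and 1.33 ± 0.38 (limma, adjusted p = 0.782 and 0.168 over all probe sets). Probe set 1439476_at had differences of -0.82, -1.59 and -1.3 in L60, L84 and LA, and 1449740_s_at of -0.92, -1.21 and -1.62. Probe set 1426153_a_at was lower in L60 and L84 (-0.91 and -0.93) and higher in LA (1.25), where its scores were 1.01 and 1.76. Probe set 1460380_at was high on LC 2 alone (2.58) and held the same score, -0.172, on L60 1, L60 2, LC 1 and LC 3.

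**Figure D3:**
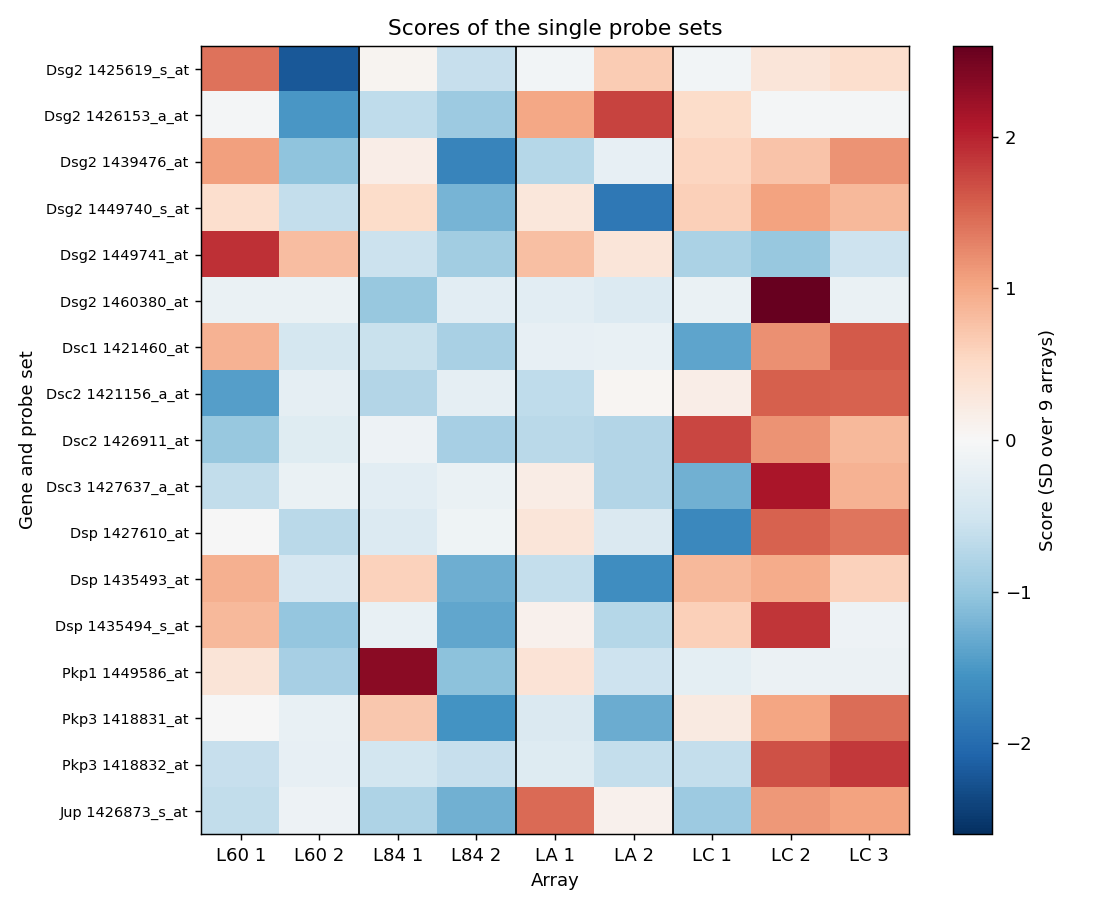
Score of each of the 17 probe sets of desmosome genes (rows) on each array (columns, in the order L60, L84, LA, LC), in SDs over the 9 arrays, with red above and blue below the probe set's own average. Both probe sets of Dsc2 are above average on all LC arrays, and 1449741_at of Dsg2 is below average there.

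Dsp encodes desmoplakin, the link between the junction and keratin filaments. The mean of its 3 probe sets scored 0.587 and -0.714 in L60, 0.0123 and -0.912 in L84 and -0.0626 and -0.912 in LA, against -0.072, 1.45 and 0.618 in LC. Replicate 1 was the higher array in each line, and LC 1 lay among the transgenic arrays. The difference of Dsp from LC was -0.73 in L60, -1.12 in L84 and -1.15 in LA (SE 0.683, limma adjusted p = 1, 0.6 and 0.382).

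The probe sets of Dsp parted on LC 1. There 1427610_at scored -1.68, its lowest value on any array, while 1435493_at scored 0.844 and 1435494_s_at 0.618. For 1435493_at, LA scored -0.616 and -1.61 and L84 scored 0.591 and -1.27, against 0.844, 0.966 and 0.598 in LC. Both lines lay below the controls, though L84 1 only just, and the difference in LA was -1.92 ± 0.734 (limma, adjusted p = 0.25 over all probe sets). For 1427610_at that difference was -0.45 ± 1.09.

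Among the armadillo-repeat proteins, Pkp3, a plakophilin present through all living layers of the epidermis, came closest after Dsc2. Pkp3 scored -0.309 and -0.2 in L60, 0.116 and -1.08 in L84 and -0.361 and -0.956 in LA, against -0.2, 1.35 and 1.64 in LC. LC 2 and LC 3 were above every transgenic array, and LC 1 was below L84 1 and, as rounded, level with L60 2. Its difference from LC was -1.18 in L60, -1.41 in L84 and -1.59 in LA (SE 0.69, limma adjusted p = 1, 0.512 and 0.273), and -1.4 ± 0.535 in the mean of the lines (unadjusted p = 0.0477, adjusted p = 0.367, limma). Both of its probe sets gave that sign in the mean of the lines, at -1.36 and -1.43.

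Pkp1, the plakophilin that is most abundant in the upper epidermis, scored 0.343 and -0.86 in L60, 2.34 and -1.07 in L84 and 0.352 and -0.545 in LA, against -0.252, -0.153 and -0.153 in LC. L84 held the highest and the lowest score, and the controls lay close together in the middle of the range. The difference of L84 from LC was 0.82 ± 1.08 (limma, adjusted p = 0.824), and it was -0.88 without L84 1 and 2.52 without L84 2.

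Jup encodes plakoglobin, which is shared by desmosomes and adherens junctions and is a close relative of β-catenin. It scored -0.647 and -0.13 in L60, -0.794 and -1.24 in L84 and 1.47 and 0.108 in LA, against -0.94, 1.13 and 1.04 in LC. Both L84 arrays lay below both L60 arrays, and both LA arrays lay above them, while LC spanned most of that range. Its difference from LC was -0.8 in L60, -1.43 in L84 and 0.38 in LA (SE 0.806, limma adjusted p = 1, 0.571 and 0.806). The sign in LA rested on single arrays, with -0.3 without LA 1 and also -0.3 without LC 1.

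Between the lines no desmosome gene was called by limma, against 0.113% of all genes for L84 against L60, 0.629% for LA against L60 and 0.0161% for LA against L84. At an unadjusted p under 0.05 there were 0 as well, against 8.03%, 16.2% and 10.6% of all genes. Jup showed the widest gap, 1.8 ± 0.882 for LA minus L84 (95% interval -0.47 to 4.07, adjusted p = 0.514) and 1.18 ± 0.882 for LA minus L60 (adjusted p = 0.531). The medians over the 8 genes were -0.31, 0.12 and -0.028 in these 3 comparisons, against -0.075, 0.16 and 0.12 over all genes, with 5, 3 and 5 of 8 genes negative, against 53.4%, 45.5% and 46.4%. These medians moved with single arrays. For L84 against L60 the median was -0.84 without L84 1, 0.096 without L84 2 and -0.14 without L60 1. For LA against L60 it was -0.39 without L60 2, 0.24 without L60 1 and -0.32 without LA 1. For LA against L84 it was 0.54 without L84 1, 0.4 without LA 2 and -0.16 without LA 1.

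Arrays of 2 lines did not overlap for a few of these genes. Both L84 arrays were below both L60 arrays for Dsc1 and Jup (2 of 8, against 17.5% of all genes) and above them for 0 (12%). LA was below L60 for Pkp3 (1 of 8, 23.7%) and above it for Jup (1 of 8, 26.8%). LA was above L84 for Dsg2, Dsc1 and Jup (3 of 8, 20%) and below it for 0 (13.6%). Of the 24 differences between lines (8 genes in 3 comparisons), 17 changed sign when 1 array or another was left out.

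The order of the arrays within each group was also compared with that over all genes. LC 1 scored below both LC 2 and LC 3 for 8 of 8 desmosome genes, an order seen in 39.8% of all genes. L84 2 scored below L84 1 for 7 of 8 genes (52.6% of all genes), LA 2 below LA 1 for 6 of 8 (56%) and L60 2 below L60 1 for 4 of 8 (48%). The highest score lay on LC 2 for 3 genes and on LC 3 for 2, and the lowest on L84 2 for 5 genes.

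Because LC 1, L60 1 and L84 1 were the arrays high in 18S, the lines were also set against controls on the same side of that split. The 18S scores of these arrays still differed (1.13, 2.09 and 0.339). Each difference rests on 1 or 2 arrays per group, with no test. Between L60 1 and LC 1 the median difference over the 8 genes was 0.6 with 2 of 8 negative (44.3% of all genes), and between L60 2 and the mean of LC 2 and LC 3 it was -1.61 with 8 of 8 negative (46.7%). For L84 the values were 0.23 with 2 of 8 negative (48.4%) among arrays high in 18S and -1.89 with 8 of 8 negative (51%) among the others. LA has no array high in 18S, and against LC 2 and LC 3 its median was -1.56 with 7 of 8 negative (43.6%).

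Dsc2 was lower on both sides of this split, at -2.17 and -1.55 in L60 and at -1.4 and -1.82 in L84. Any split of the arrays would give that sign, since every transgenic array lay below every control array for Dsc2. The sides lay farthest apart for Dsc1 in L60 (2.29 and -1.84) and for Pkp1 in L84 (2.59 and -0.92), and Dsc1 stood at 0.79 and -2.23 in L84. Jup stood at 0.29 and -1.22 in L60 and at 0.15 and -2.32 in L84. The part of RNA amount or quality in these differences was not tested.

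**Figure D4:**
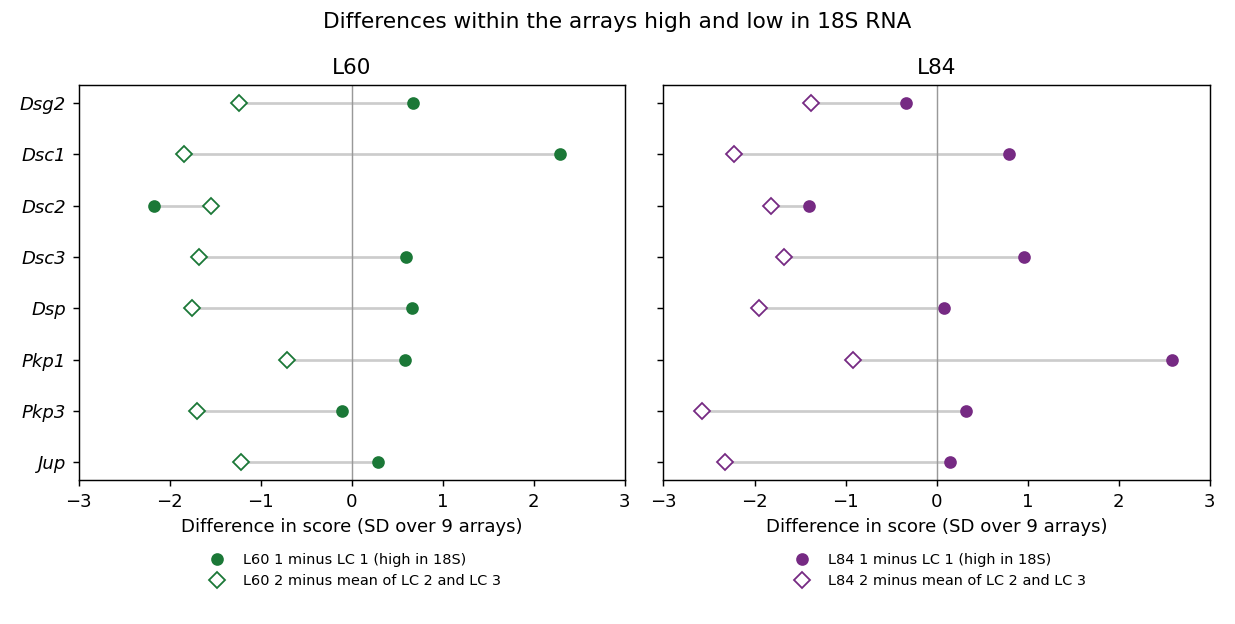
Difference in score from LC for each desmosome gene in L60 (left) and L84 (right), in SDs over the 9 arrays. Filled circles set replicate 1 of the line against LC 1, all high in 18S, and open diamonds set replicate 2 against the mean of LC 2 and LC 3. All diamonds lie below 0, and in each panel 6 of 8 circles lie above it. Dsc2 lies below 0 throughout, as it would in any split, since its transgenic and control arrays do not overlap.

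Of 10 other genes of the desmosome and its cornified successor, 6 were measured and 0 were called in any comparison by limma (0 or 1 of 6 at an unadjusted p under 0.05 in each). Evpl encodes envoplakin, a plakin that joins desmosomes to the cornified envelope. It scored 0.0592 and -0.313 in L60, -0.175 and -1.94 in L84 and 0.3 and -0.651 in LA, against 0.0592, 1.18 and 1.48 in LC. Its differences from LC were -1.03, -1.96 and -1.08 (SE 0.731, limma adjusted p = 1, 0.39 and 0.433). Ppl, its partner periplakin, differed by -0.73, -0.31 and 0.47.

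Pkp4, a plakophilin relative of cell junctions, scored 1.16 and 0.456 in L60, 0.733 and -0.578 in L84 and -1.29 and -1.22 in LA, against 0.561, 0.148 and 0.0384 in LC. LA lay below all other arrays, at -1.51 ± 0.458 from LC (limma, adjusted p = 0.166). Pkp2, the plakophilin of heart and simple epithelia, had differences of 0.088 in L60, -0.9 in L84 and -0.093 in LA. Perp, a tetraspan protein of the desmosome, differed by 0.6, 0.54 and 0.33, and Cdsn, the corneodesmosin of the outermost layers, by -1.18, -0.14 and 0.89. The median over these 6 genes was -0.32 in L60, -0.24 in L84 and 0.12 in LA, nearer to 0 than that of the 8 listed genes; whether the lists differ was not tested.

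Genes of other keratinocyte junctions gave 0 calls by limma against LC too; at an unadjusted p under 0.05 there were 0, 2 and 3 adherens and 0, 3 and 2 tight junction genes in L60, L84 and LA. Of 9 adherens junction genes measured, 5, 8 and 8 were below LC in L60, L84 and LA, with medians of -0.018, -0.93 and -1.03. The smallest and largest differences in LA were those of Ctnnd1, the catenin that binds the cadherin tail next to the membrane (-0.13), and of Cdh3, P-cadherin (-1.96, limma adjusted p = 0.157). Of 7 tight junction genes, 5, 5 and 6 were below LC, with medians of -0.3, -0.52 and -0.35. The largest and smallest of them in LA were those of Tjp1, a scaffold protein (-2.23, limma adjusted p = 0.0874), and F11r, a junctional adhesion molecule (-0.032).

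Keratins, the filaments that desmoplakin holds, moved in both directions on the same arrays. Krt5, a keratin of basal cells, rose by 2.21 ± 0.244 in L84 and 1.99 ± 0.244 in LA against LC (limma, adjusted p = 0.0487 and 0.0359), and Krt15, a basal and bulge keratin, by 2.28 ± 0.179 and 1.93 ± 0.179 (adjusted p = 0.0193 and 0.0184). The suprabasal keratin Krt77 rose by 1.89 ± 0.117 and 2.35 ± 0.117 (adjusted p = 0.00983 and 0.00469), and Krt10 rose by 2.11 ± 0.277 in LA (adjusted p = 0.0418). Of 9 hair shaft keratins, 9 fell in L84 and 9 in LA. The 4 largest differences in L84 were those of Krt34 (-2.23), Krt81 (-2.23), Krt36 (-2.21) and Krt86 (-2.17), with limma adjusted p between 0.000718 and 0.0168. The largest in LA were those of Krt33b (-2.16), Krt83 (-2.14) and Krt86 (-2.13). Krt33a, Krt34 and Krt36 followed, tied as rounded (-2.07), and the limma adjusted p of all these lay between 0.00102 and 0.0202. In L60 no keratin of these lists was called, where 0% of all genes were. There too 9 of 9 hair shaft keratins were below LC, with a median difference of -1.02. All 9 had an unadjusted p under 0.05 (limma), against 4.72% of all genes. Krt5, Krt15, Krt77 and Krt10 were above LC in L60 by 1.28, 0.97, 1.19 and 1.54.

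Markers of other cell types are given beside these results as mean scores per array. The 8 desmosome genes averaged -0.448 to -0.0253 in L60, -0.85 to 0.0145 in L84 and -0.445 to 0.109 in LA, against -0.378 to 1.13 in LC. For 8 basal keratinocyte markers the ranges were -0.135 to 0.0424, 0.35 to 1.39 and -0.0628 to 0.487, against -0.972 to -0.513. In each line 7 of these 8 genes were above LC. Trp63 was below it, by -0.89 in L60, -0.26 in L84 and -1.5 in LA, and Krt14 in LA was above it by only 0.13. For 9 suprabasal markers the ranges were -0.446 to 0.503, -0.39 to 0.392 and -0.0353 to 0.15, against -0.249 to 0.057. In each line 5 of these 9 genes were above LC and 4 below it, so the mean hides opposite differences. Those below were Ivl (-1.93 in L84 and -1.88 in LA), Tgm1 (-1.97 and -1.61), Tgm3 (-1.94 and -1.63) and Sprr1a (-1.84 and -1.73), with 0 of them called by limma.

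The 9 hair shaft keratins averaged 0.142 to 0.347 in L60, -1.04 to -0.951 in L84 and -0.987 to -0.909 in LA, against 1.09 to 1.18 in LC, and the 8 inner root sheath markers 0.496 to 0.714, -1.05 to -0.75 and -1.07 to -0.83, against 0.591 to 0.963. The list of inner root sheath markers was drawn up for inner root sheath and medulla, and its genes were not checked as specific to either. All 8 inner root sheath markers were below LC in L84, and 6 were called. The largest called differences in L84 were those of Padi3 (-2.01), S100a3 (-1.99), Tchh (-1.97) and Krt25 (-1.94, limma adjusted p between 0.000718 and 0.0156). Krt72 differed by -2.08 in L84 and was not called (limma, adjusted p = 0.0607). In LA all 8 were below LC, and 7 were called. The largest differences in LA were those of Krt72 (-2.07), S100a3 (-2.05), Tchh (-2) and Padi3 (-2, limma adjusted p between 0.000812 and 0.0347). For 7 stressed keratinocyte markers the ranges were -0.102 to -0.0503, -0.435 to 0.44 and -0.418 to 0.0604, against -0.213 to 0.406, with 1 called, Krt75, a hair follicle keratin (-2.08 in LA, limma adjusted p = 0.0409).

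Simple epithelium markers, which stand for the glands of the skin, averaged -0.588 to -0.0314 in L60, -0.236 to 1.13 in L84 and -0.189 to 0.163 in LA, against -0.687 to 0.258 in LC. Of these 5 markers, 3 were above LC in each line and 0 were called by limma (1, 2 and 0 at an unadjusted p under 0.05 in L60, L84 and LA), with median differences of 0.03, 1.29 and 0.49. In the same order of lines, the keratin Krt18 had differences of -1.76, -1.93 and -1.43, its partner Krt8 of -0.58, 1.29 and 1.06, Krt7 of 0.67, 1.66 and 0.65 and Krt19 of 0.03, 1.9 and -0.42. The adhesion molecule Epcam had differences of 0.5, -0.27 and 0.49. Skeletal muscle markers averaged -1.17 to -0.438, 0.143 to 1.39 and 0.408 to 1.02, against -0.581 to -0.388, and fibroblast markers -0.0719 to 0.411, -1.82 to 0.647 and 0.526 to 0.858, against -0.327 to 0.089. Adipocyte markers averaged -0.164 to 0.515, -1.17 to -0.729 and -0.968 to 0.202, against 0.494 to 1.17, and endothelial markers -0.0313 to 0.246, -0.363 to -0.263 and 0.0757 to 0.471, against -0.151 to 0.0155. Their part in the scores of the desmosome genes was not tested.

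**Figure D5:**
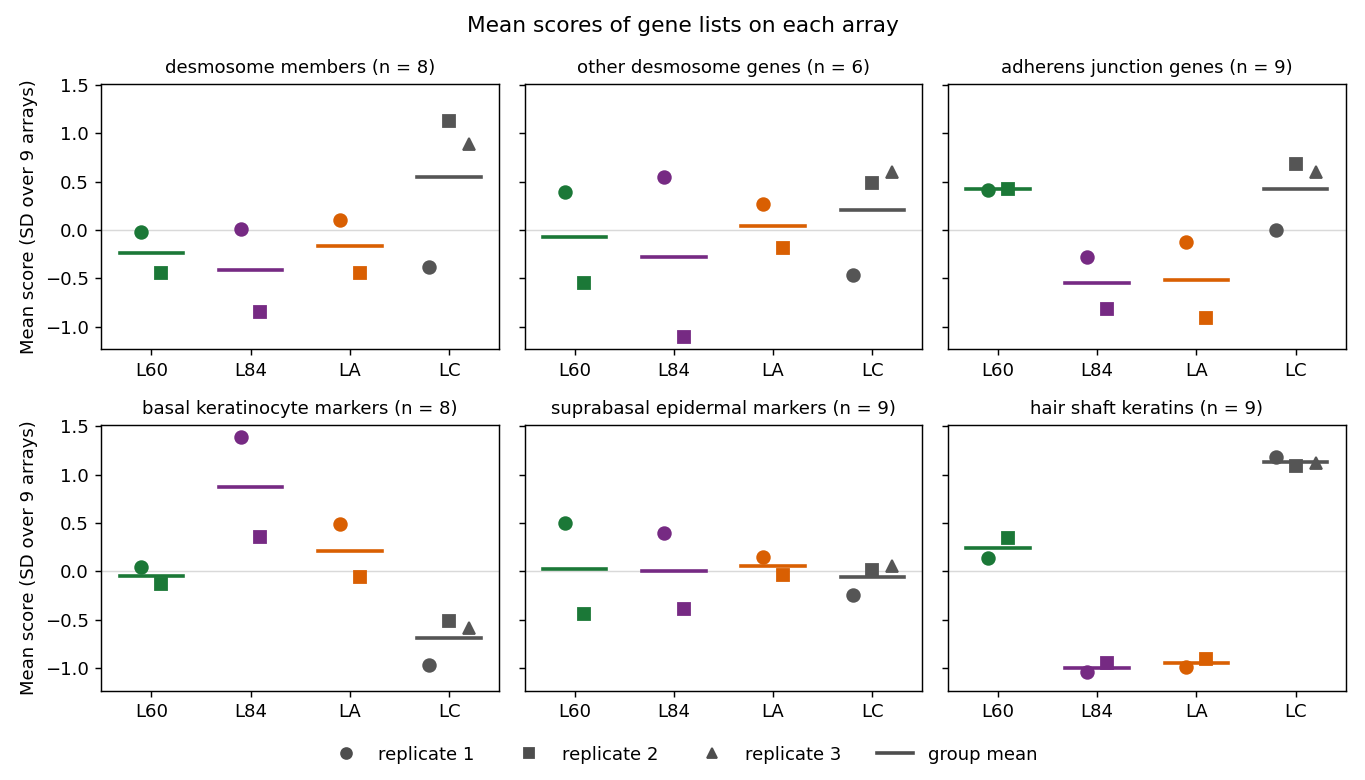
Mean score per array (in SDs over the 9 arrays) of the 8 desmosome genes and of 5 other gene lists in L60, L84, LA and LC. Points are arrays, their shape gives the replicate number, and bars are group means. The mean of the desmosome genes overlaps between the lines and LC, with LC 1 within the range of the lines. The mean of the basal keratinocyte markers lies higher, and that of the hair shaft keratins lower, in every transgenic array than in LC.

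The genes whose scores followed each desmosome gene most closely over the 9 arrays are listed as a description. The points share arrays and groups, and a search over 12124 genes finds high values in so few arrays. For Dsc2 they were Stbd1, Car6 and Wfdc18 (Pearson r = 0.972, 0.97 and 0.968), with 25 genes above 0.9. For Dsp they were Skp1, Trmt5 and Anxa9 (r = 0.972, 0.953 and 0.937), with 10 genes above 0.9. The profiles of Pkp3 and Pkp1, shared by 84 and 80 genes above 0.9, were nearest to Cxxc1, Wsb2 and Opa1 (0.971, 0.971 and 0.969) and to Dhcr7, Zfp707 and Tmem9b (0.976, 0.974 and 0.973).

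The remaining genes had few close neighbours, with 2 to 4 genes above 0.9 each. Jup was nearest to Ctdsp2, Akt2 and Thsd1 (r = 0.936, 0.928 and 0.91) and Dsc3 to Dgcr2, Bex1 and Kazn (0.913, 0.904 and 0.899). Dsc1 was nearest to Strbp, Taf6l and Zkscan3 (0.929, 0.92 and 0.91) and Dsg2 to Ptpn13, Gp1bb and Rccd1 (0.933, 0.93 and 0.918). No desmosome gene was among the 3 nearest of another.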

How the data were processed

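Total RNA from 30 mg of skin per extract was hybridised to 9 Affymetrix arrays. The submitters' processing notes list RMA and give no version for it. As deposited, each value is a score, standardised by probe set to mean 0 and SD 1 across arrays (the largest mean of any probe set was 1.86e-07). The labels do not say whether log values were standardised. Of 22690 probe sets, 20380 named 1 gene in the platform annotation, 691 several, 1555 none, and 64 were controls. Probe sets naming the same gene alone were averaged, giving 12393 genes. Such averages can have an SD below 1. Some scores were tied in 44.3% of probe sets and in 6 of the 17 of desmosome genes.

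Linear models of group means were fitted in R 4.3.3 by limma 3.58.1, without variance moderation (5 residual degrees of freedom), for 7 contrasts and an F test, with Benjamini-Hochberg adjustment over all genes. The code was tested on simulated data. The number of arrays limits the precision. All desmosome genes are named, as are the other desmosome genes measured and the 3 nearest genes by correlation. Up to 4 called genes of each other list are named by size for each line against LC, or more where tied as rounded. A list with no call could have its largest and smallest difference named, which was done for the junction lists in LA only. All simple epithelium markers are given, as are Krt72 in L84, Trp63, the suprabasal markers below LC, and Krt5, Krt10, Krt15 and Krt77 in L60. These choices were made after their values were seen. Called list genes in the other contrasts are not named. The genes, lists and tests were chosen with earlier results of these data known. Alternatives were leaving out each array, the replicate number as a block, moderated variance, probe sets singly or 1 per gene, only the arrays compared, array medians set to 0, array weights, and dropping arrays with high 18S or with the widest scores.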

Additional observations from a re-analysis of the deposited data

How the results depend on the processing

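In the alternatives run, no desmosome gene was called in any comparison, with 1 exception: limma's array weights called 1 gene, Dsc2, in the mean of the 3 lines (-1.84). Fitting only the arrays compared gives no value for the mean of the lines or the F test. With the replicate number as a replicate block 0 genes were called in every comparison, and Dsc2 stood at -1.74 in the mean of the lines (adjusted p = 0.412), while Dsc1 in L60 against LC turned to 0.32. Deviations of the arrays numbered 1 from their group means correlated between -0.0833 and 0.345 across groups. The numbers were not taken to pair the arrays, although 7 of 8 arrays numbered 1 or 2 correlated best with an array of their own number. In groups of 2 arrays the deviations mirror each other, so these 8 are not separate checks, and a pairing is not excluded. Of the 32 differences from LC (8 genes, 3 lines and their mean), 24 kept their sign in all alternatives; over all 7 contrasts 65 of 944 alternative values had the opposite sign, in 25 of 56 differences. The cause was not tested.

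With 1 probe set per gene, Dsg2 turned to 0.075 in LA against LC and 0.14 in L84 against L60, Dsp to 0.12 in L84 against L60, 0.32 in LA against L60 and 0.2 in LA against L84, and Dsc2 to 0.2 in LA against L84. Array medians set to 0 gave Pkp1 -0.043, and array weights gave Jup -0.1, both in LA against LC. Without the arrays high in 18S, differences from LC were -0.92 (L84) and -0.52 (mean of lines) for Pkp1 and -0.3 (LA) for Jup. In L84 against L60 they were -0.28 for Dsc2 and -0.21 for Pkp1. In LA against L60 they were 0.25 for Dsc1, -0.24 for Dsc2, -0.12 for Dsc3 and 0.23 for Dsp. In LA against L84 they were 0.033 for Dsc2, 0.42 for Dsp, 0.97 for Pkp1 and 0.42 for Pkp3. Without the arrays of widest scores, Pkp1 gave -0.88 (L84 against LC), -0.14 (mean of lines), -0.81 (L84 against L60) and 1.42 (LA against L84), Dsp 0.00072 (LA against L60) and 0.85 (LA against L84), Dsc3 0.36 and Pkp3 0.72 (both LA against L84).

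Leaving out each array in turn, differences from LC that changed sign ran from -1.12 to 0.44 for Dsg2, from -1.16 to 0.44 for Dsc1 and from -0.67 to 0.53 for Pkp1 in L60, from -0.88 to 2.52 (L84), -0.36 to 0.54 (LA) and -0.29 to 0.85 (mean of lines) for Pkp1, and from -0.3 to 1.06 for Jup in LA. In L84 against L60 the ranges were -1.36 to 0.2 for Dsg2, -0.22 to 0.72 for Dsc2, -0.059 to 0.41 for Dsc3, -1.04 to 0.26 for Dsp, -0.81 to 2.6 for Pkp1 and -0.83 to 0.37 for Pkp3. In LA against L60 they were -0.66 to 0.9 for Dsg2, -1.11 to 0.25 for Dsc1, -0.24 to 0.7 for Dsc2, -0.36 to 0.6 for Dsc3, -1.07 to 0.23 for Dsp and -0.44 to 0.76 for Pkp1. In LA against L84 they were -0.18 to 0.15 for Dsc2, -0.53 to 0.42 for Dsc3, -0.5 to 0.42 for Dsp, -2.43 to 0.97 for Pkp1 and -0.77 to 0.42 for Pkp3.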
